A study of Homo sapiens with 12 samples.

Results

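The comparison was between SK/EPI cells transfected with a control siRNA and SK/EPI cells with no siRNA in their labels, 6 of the 12 RNA-seq libraries of the series. SK-BR-3, a human line established from a breast carcinoma, carries amplified ERBB2. SK/EPI descends from it by long exposure to rising doses of epirubicin, an anthracycline that acts on topoisomerase II, and is resistant to this drug. SK/EPI-siNC cells (3 libraries) carried the non-targeting control siRNA, delivered with the lipid reagent Lipofectamine RNAiMax for 48 h, and SK/EPI cells (3 libraries) had no transfection stated. The libraries were chosen by their labels, which name each by group and number, and SK/EPI-siNC serves the study as the reference for knockdown of ABCG2. Of the other 6, those of SK/EPI-siBCRP (3 libraries, an siRNA against ABCG2, the gene of the breast cancer resistance protein BCRP) and of SK-BR-3 (3 libraries) are given side by side with no test.

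The values came from 2 deposited tables. SK/EPI shares a table with SK-BR-3, and SK/EPI-siNC shares the other with SK/EPI-siBCRP. No library of transfected cells is in the first table and no library of cells without siRNA is in the second, so that the siRNA, the lipid, the culture, the passage of the line and anything done separately for each table cannot be told apart. Each result below is a difference between these 2 sets of 3 libraries. SK/EPI is a single resistant line, and nothing in the labels says that libraries of a group came from separate cultures, so that p-values measure only the spread between these samples, which may be technical.

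Cells sense foreign double-stranded RNA with cytoplasmic helicases such as RIG-I and MDA5, which signal through MAVS to the kinases TBK1 and IKKε and to the interferon genes. Secreted interferon then activates a complex that holds STAT2 and IRF9, which binds the interferon-stimulated response element in the promoters of a large set of antiviral genes. Short interfering RNAs and cationic lipids are known to be able to engage this pathway, as are anthracyclines, and the set of genes it raises also includes the class I HLA genes, which present peptides to T cells.

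The core of the response element was searched as GAAANNGAAA on both strands of the RefSeq promoters, which run from 250 bases before to 50 bases after each gene's start (GRCh38.p14). It was in 62.5% of the 32 listed interferon-stimulated genes with a promoter entry (20 genes), against 3.65% of all 27305 promoters and 2.80% of the 9565 promoters of tested genes. The list was made of genes known to respond to interferon, so that this share describes the list and not these libraries. The genes with a match include EPSTI1 and ISG20, which were too low to be tested. Stretches of 50 bases upstream of the start are shown for 6 genes whose transcripts are described next. They are written 5′ to 3′ on the gene's strand, and the capitals mark 1 match, which reads TTTCNNTTTC where it lies on the opposite strand. The stretches of IFIT1, IFI27 and BST2 each hold a further match that is not marked, which in BST2 overlaps the marked letters.
IFI44L, chr1:78620355-78620404 on the plus strand: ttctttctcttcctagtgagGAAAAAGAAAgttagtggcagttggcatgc
IFI44, chr1:78649739-78649788 on the plus strand: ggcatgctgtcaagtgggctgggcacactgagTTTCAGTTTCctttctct
IFIT1, chr10:89392487-89392536 on the plus strand: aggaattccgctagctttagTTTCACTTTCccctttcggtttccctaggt
IFI27, chr14:94110608-94110657 on the plus strand: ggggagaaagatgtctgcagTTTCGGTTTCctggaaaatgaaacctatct
BST2, chr19:17405731-17405780 on the minus strand: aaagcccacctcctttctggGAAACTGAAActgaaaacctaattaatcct
OAS3, chr12:112938311-112938360 on the plus strand: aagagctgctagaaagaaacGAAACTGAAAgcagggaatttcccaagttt
A match is a description of the letters and not a measured binding site. For the heat shock element, searched as GAANNTTCNNGAA, 1 of 11 listed heat shock genes matched against 0.487% of all promoters, and for the antioxidant response element, searched as TGACNNNGCA, 1 of 12 listed NRF2 targets matched against 3.26% of all promoters.

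Depth was similar in both groups, with 17.2 M to 18.2 M reads on genes (M, 1e6 reads) in the SK/EPI libraries and 17.1 M to 20.5 M in those of SK/EPI-siNC. The composition of the libraries was not the same. Transcripts encoded in mtDNA made up 5.10% to 5.38% of the reads in SK/EPI and 3.58% to 3.68% in SK/EPI-siNC, the 10 most abundant genes took 17.5% to 18.2% and 13.5% to 13.8% of the summed FPKM (fragments scaled to exon length and library size), and 12387 to 12458 and 12945 to 12992 genes reached 1 FPKM. The epithelial markers KRT8, KRT18, KRT19, EPCAM, ERBB2 and GRB7 were present in every library and summed to 2244 to 2323 FPKM in SK/EPI and 2592 to 2631 FPKM in SK/EPI-siNC. Of the 5 fibroblast markers, 2 were at 0 in all libraries of both groups, and the 4 leukocyte markers together stayed under 1.2 FPKM. The 3 endothelial markers summed to 27.4 to 28.2 FPKM in SK/EPI and 13.7 to 14.01 FPKM in SK/EPI-siNC, of which nearly all was CDH5. In bulk RNA, fewer cells that express a gene and less RNA of it per cell cannot be told apart.

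Of 15275 genes with at least 0.5 FPKM in at least 3 of the 6 libraries, 4476 (29.3%) were higher and 3952 (25.9%) were lower in SK/EPI-siNC than in SK/EPI (limma on log2(FPKM + 1), Benjamini-Hochberg adjusted p under 0.05). Most of these differences were small, and 216 genes (1.41%) rose and 161 (1.05%) fell by a log2 difference of at least 1 on the log2(FPKM + 1) scale, where low genes appear to change less than they do. Every count of a gene group below stands against these shares. Ranking the genes within each library, which uses no scaling between tables, called 4041 genes (26.5%) higher and 4148 (27.2%) lower. Of the calls by level, 3757 and 3642 were called in the same direction by ranks and 0 in the opposite direction, and so were 367 of the 377 genes with a log2 difference of at least 1. Scaling the libraries to equal sums instead gave 7249 higher and 2210 lower, so that 76.6% of calls were higher against 53.1%, and moved the median over all genes from 0.03 to 0.17. Levels below are given for each of the 3 libraries of a group or as their mean, and SE is the standard error of the difference from limma.

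**Figure D1:**
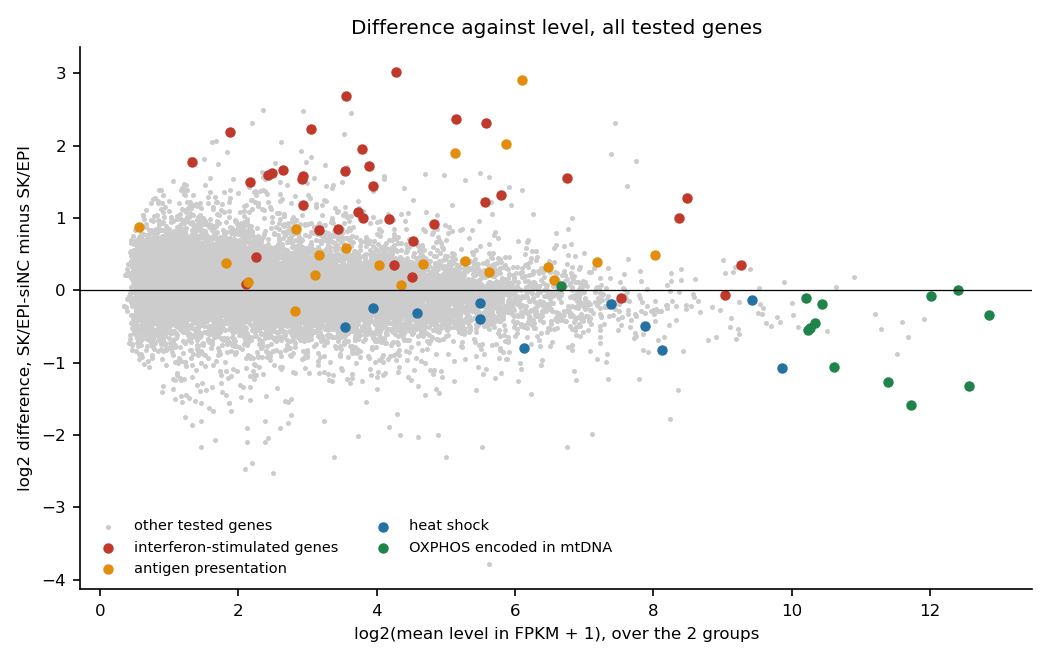
Log2 difference (SK/EPI-siNC minus SK/EPI) of every tested gene against log2 of its mean level in FPKM + 1, with 4 gene lists in color. Most interferon-stimulated and antigen presentation genes lie above 0, up to 3.02, with exceptions down to -0.28, and heat shock and mitochondrially encoded genes at 0 or below, except 1 at 0.06.

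The interferon-stimulated genes stood highest among the 32 gene lists. In this list, 34 rose and 1 fell of 37 tested (41 listed), 24 of them by a log2 difference of at least 1, and the median difference was 1.31 on the log2 scale against 0.03 over all genes tested. The summed level of the list was 1955 to 2038 FPKM in SK/EPI, 3171 to 3202 in SK/EPI-siNC, 3414 to 3485 in SK/EPI-siBCRP and 1254 to 1335 in SK-BR-3. Within-library ranks called 33 of the 37 higher and 0 lower, and the list had 34 to 36 rises under each other scaling. SAMD9L and CMPK2 passed the filter only through the SK/EPI-siNC libraries and so had to be higher, and the other 35 had 32 rises and 1 fall (median 1.27), a count added after the data were seen. The same held for 1 member each of the double-stranded RNA sensing, antigen presentation and matrix lists, and, through SK/EPI alone, for CCNE2 among replication genes and MT1G.

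OAS2 (chr12:112978395-113011723, GRCh38) makes the 2′-5′ oligoadenylates that activate RNase L. Its levels were 3.44, 3.10 and 3.23 FPKM in the SK/EPI libraries and 33.2, 33.4 and 34.1 FPKM in those of SK/EPI-siNC. This was the largest rise of any tested gene on the log2(FPKM + 1) scale, 10.3-fold (log2 difference 3.02 ± 0.0355 (SE), adjusted p = 1.21e-07), with no overlap between the groups, although lower genes such as CT45A1 and SAMD9L rose by a larger fold. Its mean rank percentile within a library was 43.3 in SK/EPI and 92.3 in SK/EPI-siNC. SK/EPI-siBCRP stood near SK/EPI-siNC at 26.3, 28.3 and 27.6 FPKM, and SK-BR-3 had a mean of 0.137 FPKM. The other oligoadenylate synthetases rose less, OAS1 from 11.2 to 23.1 FPKM, OAS3 from 18.6 to 36.2 FPKM and the related OASL from 1.69 to 7.09 FPKM.

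IFI44L and IFI44, neighboring genes of a family induced by interferon on chromosome 1, showed the same order of groups. IFI44L was at 2.32, 2.17 and 1.97 FPKM in SK/EPI and 19, 19 and 20.02 FPKM in SK/EPI-siNC (8.98-fold, log2 difference 2.69 ± 0.049 (SE), adjusted p = 4.22e-07). IFI44 was at 10.6, 11.1 and 9.99 and 59.4, 56.7 and 59.4 FPKM (5.55-fold, log2 difference 2.37 ± 0.0399 (SE), adjusted p = 3.71e-07). Both were near 0 in SK-BR-3, where IFI44 had a mean of 0.0779 FPKM and IFI44L was at 0.

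BST2, or tetherin, holds budding viruses at the cell surface. It was at 14.1, 16 and 15.2 FPKM in SK/EPI and 80.6, 78.1 and 77.7 FPKM in SK/EPI-siNC (5.21-fold, log2 difference 2.31 ± 0.044 (SE), adjusted p = 5.43e-07). Unlike most of the list, it was as high in parental SK-BR-3 cells, at a mean of 75.8 FPKM, as in the transfected cells. IFI27, a mitochondrial protein induced by interferon, rose from 1.93, 1.80 and 1.98 FPKM to 13.4, 12.3 and 12.1 FPKM (log2 difference 2.23 ± 0.0488 (SE), adjusted p = 7.71e-07), and SAMD9L, an antiviral inhibitor of translation, rose from 0.32, 0.318 and 0.338 FPKM to 5.07, 5.18 and 4.93 FPKM (log2 difference 2.19 ± 0.0487 (SE), adjusted p = 8.05e-07). SAMD9L, under 0.5 FPKM in SK/EPI, passed the filter only through SK/EPI-siNC, and rested on 41 to 45 reads per SK/EPI library against 699 to 834 per SK/EPI-siNC library, with no overlap.

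The IFIT genes, which bind viral RNA, rose together. IFIT1 went from 4.66 to 21 FPKM, IFIT2 from 4.62 to 16.7, IFIT3 from 5.88 to 21.7 and IFIT5 from 5.43 to 10.5 FPKM. The ubiquitin-like modifier ISG15 rose from 53.8 to 159.8 FPKM, with its conjugating enzyme UBE2L6 (from 31.1 to 78.6), its ligase HERC5 (from 1.36 to 5.62) and its protease USP18 (from 3.69 to 9.62 FPKM). The GTPase MX1 rose from 2.86 to 10.5 FPKM. Of the 4 listed genes that were too low to be tested, MX2 had 5 to 10 reads per SK/EPI library and 91 to 133 per SK/EPI-siNC library, and RSAD2 (viperin) had 9 to 14 and 52 to 57 reads.

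Transcription factors that carry the interferon signal rose by less than most of their targets. STAT2 was at 16.2, 14.7 and 16.1 FPKM in SK/EPI and 19.5, 19.9 and 21.3 FPKM in SK/EPI-siNC (1.29-fold, log2 difference 0.35 ± 0.0474 (SE), adjusted p = 0.000953). IRF9 went from 3.02 to 4.52 FPKM and IRF7, the factor that amplifies interferon transcription, from 16.7 to 27.3 FPKM. IRF1 did not pass the test (3.19 ± 0.254 and 3.46 ± 0.0158 FPKM, SD, n = 3; adjusted p = 0.2), and neither did LGALS3BP (536 ± 17.4 and 513 ± 3.79 FPKM; adjusted p = 0.104).

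The IFITM family, membrane proteins that restrict virus entry, was split. IFITM1 rose from 209 to 507 FPKM and IFITM3 rose from 544 to 691 FPKM. IFITM2 was the only listed gene called lower, at 188, 189 and 196 FPKM in SK/EPI and 172, 175 and 184 FPKM in SK/EPI-siNC (log2 difference -0.11, adjusted p = 0.0238), and its sign turned to 0.07 with equal sums, 0.09 with quantile normalization and 0.06 percentile points by ranks. The family members are near-identical and 22.7% of the exonic bases of IFITM2 overlap those of IFITM1, so that their values are uncertain.

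**Figure D2:**
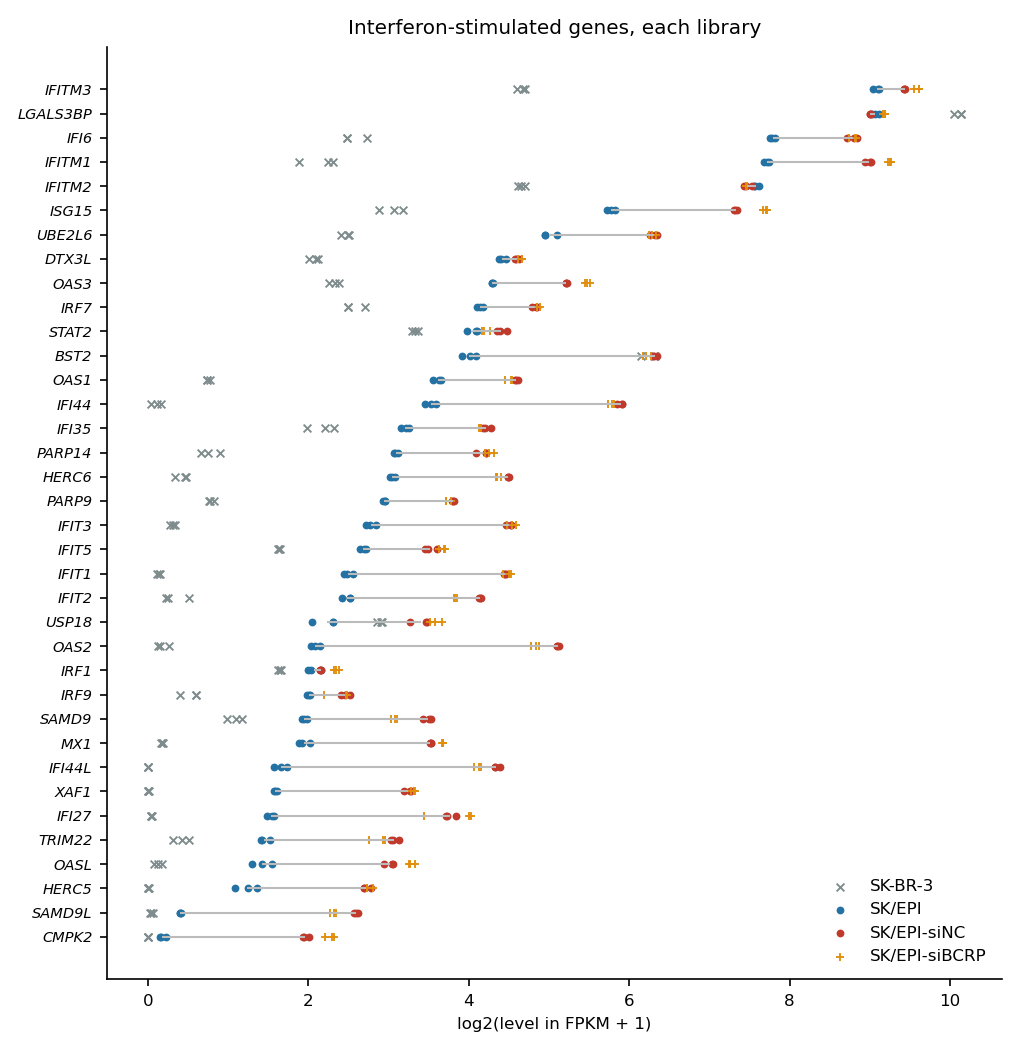
Level of the tested interferon-stimulated genes, 1 left out, in each of the 12 libraries, as log2(FPKM + 1), sorted by the SK/EPI mean, with a line from the SK/EPI to the SK/EPI-siNC mean. SK/EPI-siBCRP lies beside SK/EPI-siNC for most genes, and SK-BR-3 lies below SK/EPI for all but BST2, USP18 and LGALS3BP.

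Genes upstream of interferon moved in both directions and by less. In the list of double-stranded RNA sensing, 9 rose and 2 fell of 12 tested (19 listed), with a median of 0.44. Without IFNL1, which passed the filter only through SK/EPI-siNC and so had to be higher, 8 rose and 2 fell of 11 (median 0.37). DDX58, the gene of RIG-I, was at 10.4, 10.2 and 9.98 FPKM in SK/EPI and 20.9, 20.7 and 20.5 FPKM in SK/EPI-siNC (log2 difference 0.95 ± 0.0246 (SE), adjusted p = 1.28e-06). IKBKE, which encodes IKKε, rose from 5.93 to 13.8 FPKM, IFIH1 (MDA5) from 6.77 to 12.4 FPKM, DHX58 (LGP2) from 5.93 to 11.2 FPKM and EIF2AK2, the kinase PKR, from 9.97 to 15.2 FPKM. The adaptors MAVS and TICAM1 fell, MAVS from 22.8 to 18.4 FPKM (log2 difference -0.29 ± 0.0321 (SE), adjusted p = 0.000368) and TICAM1 from 16 to 13.9 FPKM (adjusted p = 0.0164).

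The interferon genes themselves were close to the limit of detection. IFNB1 had 1 to 3 reads in the SK/EPI libraries and 0 to 6 in those of SK/EPI-siNC. IFNL1 had 0 to 6 and 9 to 13 reads, IFNL2 had 0 to 4 and 4 to 6, and IFNL3 had 0 to 1 and 4 to 9. IFNB1, IFNL2 and IFNL3 were below the filter, and so were the RNA sensors TLR3 (0 to 1 and 8 to 13 reads) and ZBP1 (0 to 1 and 9 to 14 reads). Against a floor of 3 reads per library in SK/EPI these 2 sensors were at least 3.17-fold and 3.28-fold higher in SK/EPI-siNC. Here and below, a value against this floor uses the mean of the group with more reads. It leaves out the counting error of that mean, so that "at least" holds for the observed mean only. TLR7 and TLR8 had 2 reads or fewer in every library.

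Antigen presentation genes rose almost throughout. In this list 18 rose and 1 fell of 20 tested, with a median of 0.39 and 18 rises and 1 fall by ranks. HLA-B (chr6:31269491-31357188), a class I heavy chain, was at 14.7, 15.4 and 15.5 FPKM in SK/EPI and 120.1, 119 and 120.3 FPKM in SK/EPI-siNC (7.89-fold, log2 difference 2.90 ± 0.0237 (SE), adjusted p = 3.9e-08). HLA-C, another heavy chain, was at 12.9, 13.9 and 14.5 and 57.4, 53.1 and 51.6 FPKM (3.92-fold, log2 difference 1.90 ± 0.0531 (SE), adjusted p = 1.7e-06). Both were higher in every SK/EPI-siNC library than in any SK/EPI library, and the groups likewise did not overlap for 9696 of all 15275 tested genes. Their partner B2M rose only from 124 to 163 FPKM (log2 difference 0.39). B2M lies on chromosome 15, whose genes were mostly lower, as described below.

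The peptide-loading genes TAP1 (from 21.4 to 27.7 FPKM), TAPBP (from 43.9 to 52.5) and the immunoproteasome subunits PSMB8 (from 32.3 to 43.1) and PSMB9 (from 8.41 to 13.1 FPKM) rose modestly. NLRC5, the transactivator of class I genes, rose from 4.10 to 8.18 FPKM. Of the class II genes, CD74 rose from 216 to 303 FPKM and HLA-DRA from 78 to 98.1 FPKM, HLA-DPB1 fell from 6.72 to 5.35 FPKM (adjusted p = 0.0143), and CIITA did not pass the test (3.20 and 3.58 FPKM). In SK/EPI-siBCRP, CD74 was at 240.4 FPKM and HLA-DRA at 52.1 FPKM. HLA genes are near-identical in sequence, and 18.9% of the exonic bases of HLA-B overlap a locus on the opposite strand, so that reads could have been split between copies or with that locus.

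Inflammatory genes were split. In the list of NF-κB and inflammatory genes 6 rose and 5 fell of 14 tested (21 listed), with a median of 0.09. CCL2, a chemokine for monocytes, was at 70.5, 74.7 and 77.1 FPKM in SK/EPI and 16.1, 15.7 and 15.6 FPKM in SK/EPI-siNC (4.69-fold lower, log2 difference -2.16 ± 0.0351 (SE), adjusted p = 3.71e-07). CCL5, a chemokine for T cells that interferon can also induce, was at 213, 222 and 225 and 55.2, 53.7 and 55.3 FPKM (4.02-fold lower, log2 difference -1.99 ± 0.0257 (SE), adjusted p = 1.42e-07). In SK/EPI-siBCRP, CCL2 was at 15.8, 15.5 and 15.8 FPKM, beside SK/EPI-siNC, and CCL5 was at 126, 121 and 123 FPKM, between the other groups. NFKBIA, the inhibitor of NF-κB that NF-κB itself induces, fell from 114 to 69.1 FPKM, whereas the cytokine LIF rose from 7.45 to 12 FPKM and the apoptosis inhibitor BIRC3 from 1.30 to 2.42 FPKM. CXCL10, which interferon induces, was below the filter with 5 to 9 reads in SK/EPI and 11 to 19 in SK/EPI-siNC.

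Chaperone genes were lower. All 11 heat shock genes fell, with a median of -0.39, and 8 of them fell by ranks. HSPB1, the small chaperone HSP27, was at 1216, 1287 and 1279.98 FPKM in SK/EPI and 622, 602 and 578 FPKM in SK/EPI-siNC (2.10-fold lower, log2 difference -1.07 ± 0.0371 (SE), adjusted p = 3.24e-06). HSP90AA1 was at 357, 353 and 358 and 197, 205 and 202 FPKM (1.77-fold lower, log2 difference -0.82 ± 0.0214 (SE), adjusted p = 1.29e-06). HSPA1A (from 87.9 to 50.02 FPKM), a near-identical copy of HSPA1B (from 50.02 to 37.8 FPKM), and HSPA8 (from 274 to 194 FPKM) fell as well. The count was 8 or 9 of 11 with equal sums or quantile normalization, with no rise.

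DNA replication genes were lower and mitotic genes were not. In the replication list, 0 rose and 16 fell of 19 tested and the median was -0.25. By ranks 16 fell, whereas with equal sums 7 fell and 1 rose. MCM4, a subunit of the replicative helicase, was at 70.2, 72.9 and 73.9 FPKM in SK/EPI and 30.5, 30.6 and 31 FPKM in SK/EPI-siNC (2.36-fold lower, log2 difference -1.21 ± 0.0241 (SE), adjusted p = 5.76e-07). Its partners MCM2, MCM3, MCM5, MCM6 and MCM7 differed by -0.28, -0.19, -0.17, -0.14 and -0.21 on the log2 scale, all nearer to 0 than MCM4. PCNA, the sliding clamp, fell from 133 to 91.4 FPKM, while TYMS did not pass the test (13.4 and 12.9 FPKM). Among mitotic genes, 9 rose and 2 fell of 19 tested with a median of 0.10, CENPE rising from 3.09 to 4.88 FPKM and MKI67 falling from 14.4 to 12 FPKM.

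Mitochondrially encoded subunits of the respiratory chain were unevenly lower. In this list 0 rose and 10 fell of 13 tested, with a median of -0.45. MT-CO3 was at 4759, 5149 and 5294 FPKM in SK/EPI and 1632, 1742 and 1713 FPKM in SK/EPI-siNC (2.99-fold lower, log2 difference -1.58 ± 0.0495 (SE), adjusted p = 2.33e-06), and MT-CO1 was at 8313, 8734 and 8903 and 3459, 3471 and 3465 FPKM (2.50-fold lower, log2 difference -1.32 ± 0.0383 (SE), adjusted p = 1.91e-06). MT-ATP6 fell from 3813 to 1584 FPKM and MT-ND3 from 2107 to 1012 FPKM, whereas MT-CO2 fell only from 8245 to 6495 FPKM and MT-ND4L did not pass the test (5330.1, 5436 and 5517 against 5359, 5344 and 5605 FPKM). These genes are cut from long common transcripts, and MT-CO1, above MT-CO2 on average in SK/EPI, was below it in SK/EPI-siNC.

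For MT-CO3 the other libraries followed their table, with 1914, 1852 and 1839.7 FPKM in SK/EPI-siBCRP and a mean of 3778 FPKM in SK-BR-3. The direction for the list was not stable to scaling, since quantile normalization called 5 rises and 4 falls and ranks called none, the genes lying at the top of the ranking in every library. Nuclear-encoded subunits of the chain had 14 rises and 21 falls of 74 tested and a median of -0.05, which became 0.12 with 36 rises and 11 falls under equal sums.

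Most genes of the cytosolic ribosome fell by level. Of 78 tested, 1 rose and 64 fell, with a median of -0.32, and ranks called 2 rises and 29 falls. RPL15 was at 221, 227 and 231 FPKM in SK/EPI and 96.5, 95.6 and 95.9 FPKM in SK/EPI-siNC (2.36-fold lower, log2 difference -1.23 ± 0.021 (SE), adjusted p = 3.71e-07), and RPS29 at 35.1, 37 and 36.6 and 19, 15 and 15.3 FPKM (2.20-fold lower). RPL28 was the 1 gene called higher, from 69.2 to 81.2 FPKM. With equal sums 11 rose and 48 fell, and with quantile normalization 6 and 47. Many of these genes have processed copies in the genome with which they can share reads.

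**Figure D3:**
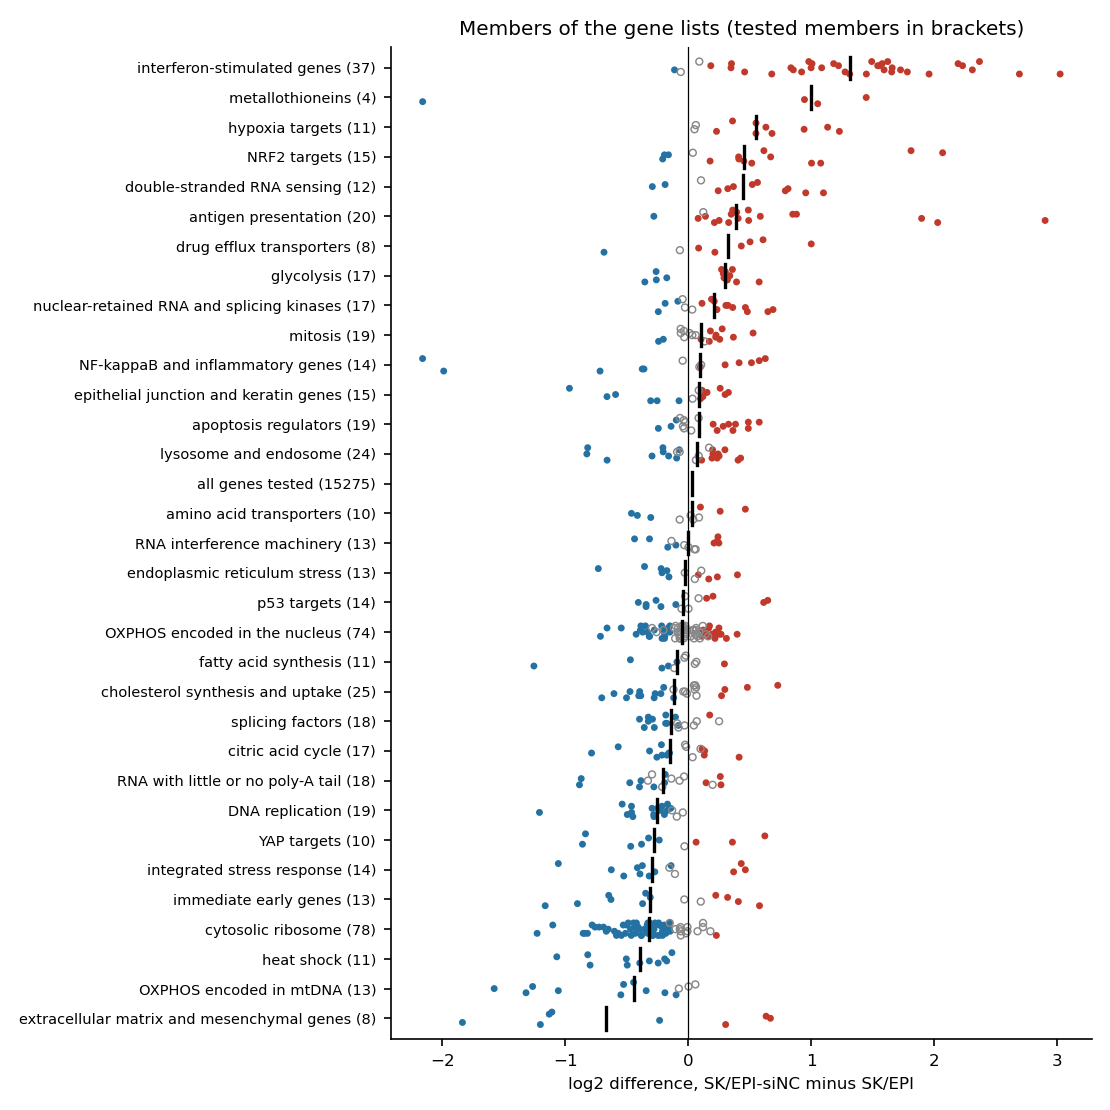
Log2 difference (SK/EPI-siNC minus SK/EPI) of each tested member of the 32 gene lists, with the number tested in brackets. Filled points passed the test (red higher, blue lower), open points did not, and the black bar is the median, from 1.31 for interferon-stimulated genes to -0.67 for the 8 extracellular matrix and mesenchymal genes and 0.03 over all genes tested.

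Genes that respond to low oxygen and to oxidants were mostly higher. Of the hypoxia targets, 9 rose and 0 fell of 11 tested, with a median of 0.55 (10 rises and 0 falls by ranks), and 2 of the 9 rises (CA9 and PDK1) passed the filter only through the SK/EPI-siNC libraries. Of the 2 listed genes that were too low to be tested, CA12, another carbonic anhydrase, went the other way, with 13 to 27 reads in SK/EPI and 0 to 3 in SK/EPI-siNC, at least 6.69-fold lower against a floor of 3 reads per library. NDRG1, a stress-induced differentiation gene, was at 5.59, 5.70 and 5.46 FPKM in SK/EPI and 13.6, 13.3 and 13.4 FPKM in SK/EPI-siNC (log2 difference 1.13 ± 0.0282 (SE), adjusted p = 1.16e-06), and VEGFA, the angiogenic factor, rose from 13.9 to 20.7 FPKM. The carbonic anhydrase CA9 had 0 to 3 reads in the SK/EPI libraries and 35 to 69 in those of SK/EPI-siNC, at least 15.7-fold higher against a floor of 3 reads per library, and 38.5% of its exonic bases overlap ARHGEF39 on the opposite strand. Among glycolytic genes 13 rose and 4 fell of 17 tested, with a median of 0.30. Ranks called 13 rises and 1 fall, and quantile normalization called 14 rises and 2 falls. ALDOC rose from 23.9 to 36.1 FPKM and HK1 from 15.4 to 20.6 FPKM, while PKM, which carries the last step of the pathway, fell from 147 to 115 FPKM and ENO1 from 385 to 321 FPKM.

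NRF2, the transcription factor of the antioxidant response, had 11 targets that rose and 3 that fell of 15 tested, with a median of 0.45. Of these, AKR1C1, AKR1C2 and AKR1C3 passed the filter only through SK/EPI-siNC and so had to be higher, and the other 12 had 8 rises and 3 falls (median 0.41). NQO1, a quinone reductase that can also reduce anthracyclines, was at 75.9, 72.6 and 75.2 FPKM in SK/EPI and 152, 149.5 and 149.6 FPKM in SK/EPI-siNC (2.02-fold, log2 difference 1.00 ± 0.0224 (SE), adjusted p = 8.05e-07). AKR1C1 was at 0.207, 0.277 and 0.208 and 4.18, 4.17 and 4.11 FPKM (log2 difference 2.07 ± 0.0546 (SE), adjusted p = 1.29e-06) and AKR1C2 at 0.112, 0.12 and 0.149 and 2.61, 2.98 and 3.30 FPKM, both near-identical aldo-keto reductases that can share reads. TXNRD1 (from 193 to 168 FPKM) was called lower, with a sign that turned under ranks and quantile normalization, and so was TKT (from 89.96 to 77.7 FPKM).

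Metallothioneins bind zinc and copper, and of 4 tested (6 listed), 3 rose and 1 fell. MT2A was at 93.1, 109 and 109.7 FPKM in SK/EPI and 274, 321 and 261 FPKM in SK/EPI-siNC (2.74-fold, log2 difference 1.45 ± 0.0934 (SE), adjusted p = 3.65e-05), MT1F rose from 32.1 to 67.7 FPKM and MT1X from 9.96 to 20.1 FPKM. MT1G had 44 to 53 reads in the SK/EPI libraries and 0 in all 3 of SK/EPI-siNC, at least 17.9-fold lower against a floor of 3 reads per library. The members of this family are near-identical, and the direction of MT1G was opposite to that of its copies.

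The remaining stress lists were mixed. For the integrated stress response, 3 rose and 9 fell of 14 tested with a median of -0.30. PHGDH, the first enzyme of serine synthesis, fell from 5.61 to 2.18 FPKM, TRIB3 fell from 65.8 to 42.3 FPKM, and the cystine transporter SLC7A11 rose from 1.62 to 2.61 FPKM. For endoplasmic reticulum stress, 4 rose and 6 fell of 13 tested, with MANF falling from 20.8 to 12.1 FPKM and a median of -0.03 that became 0.14 with equal sums and 0.04 with quantile normalization. Of the immediate early genes, which respond within minutes to growth signals, 4 rose and 7 fell of 13 tested. FOS was at 5.39, 5.63 and 5.69 FPKM in SK/EPI and 1.94, 1.75 and 2.11 FPKM in SK/EPI-siNC (log2 difference -1.16 ± 0.056 (SE), adjusted p = 1.08e-05) and JUN at 18.7, 17.5 and 18.4 and 9.59, 8.98 and 9.22 FPKM, while ZFP36, which degrades cytokine mRNA, rose from 3.96 to 6.40 FPKM. The p53 targets (4 rose and 6 fell of 14 tested) and apoptosis regulators (9 rose and 3 fell of 19 tested) moved in both directions, and with equal sums the p53 median of -0.04 became 0.09 and the apoptosis list had 13 rises and 0 falls, the death receptor FAS rising from 0.82 to 1.85 FPKM and MDM2 falling from 5.31 to 3.98 FPKM.

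Lists tied to siRNA, its uptake and lipid synthesis were mixed. Of the RNA interference machinery, which an siRNA uses, 4 rose and 4 fell of 13 tested, with a median of 0.00. TARBP2, a partner of Dicer, fell from 10.8 to 7.68 FPKM and TNRC6A, a partner of Argonaute, rose from 6.16 to 7.50 FPKM. Of the lysosome and endosome genes, through which lipid particles enter, 10 rose and 9 fell of 24 tested (15 and 4 with equal sums). The autophagy receptor SQSTM1 rose from 66.7 to 89.8 FPKM and the proton pump subunit ATP6V1A fell from 15 to 8.05 FPKM. Of the cholesterol genes, 4 rose and 12 fell of 25 tested, with HMGCS1 rising from 39.6 to 66.2 FPKM and EBP falling from 18.6 to 11 FPKM, but the median changed sign from -0.12 to 0.05 with equal sums. Of the fatty acid synthesis genes, 1 rose and 5 fell of 11 tested, with a median that changed sign from -0.09 to 0.07 with equal sums. ACLY, which makes cytosolic acetyl-CoA, was at 89.2, 93.1 and 93.3 FPKM in SK/EPI and 38.7, 38.4 and 36.6 FPKM in SK/EPI-siNC (2.42-fold lower, log2 difference -1.26 ± 0.0298 (SE), adjusted p = 9.26e-07), yet at 84.9, 89.7 and 89.1 FPKM in SK/EPI-siBCRP.

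Matrix and adhesion genes included large falls. Of the extracellular matrix and mesenchymal genes, 3 rose and 5 fell of 8 tested (16 listed). The median of -0.67 rests on few genes and was -1.11 without any 1 of the SK/EPI-siNC libraries, which left 7 genes, -0.01 without the filter and -0.23 without chromosomes 3, 4, 14, 15 and 18. FN1, fibronectin, was at 9.16, 9.18 and 9.42 FPKM in SK/EPI and 1.76, 2.07 and 1.80 FPKM in SK/EPI-siNC (4.94-fold lower, log2 difference -1.84 ± 0.0501 (SE), adjusted p = 1.52e-06), and THBS1, thrombospondin, at 42.1, 41.7 and 42.4 and 17.1, 17.7 and 18.3 FPKM (2.37-fold lower). COL5A1 rose from 9.53 to 15.7 FPKM. The YAP targets (3 rose and 6 fell of 10 tested) included AJUBA, which fell from 26.6 to 14.4 FPKM, and F3, tissue factor, which rose from 2.90 to 4.98 FPKM. Of the epithelial junction and keratin genes, 7 rose and 6 fell of 15 tested, with the tight junction gene CLDN3 falling from 110.02 to 55.8 FPKM and KRT19 rising from 512 to 642 FPKM.

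Nuclear and processing-related RNAs also differed. Of the nuclear-retained RNAs and splicing kinases, 11 rose and 3 fell of 17 tested (median 0.21). NEAT1, the RNA of paraspeckles, was at 52.9, 47.2 and 47.9 FPKM in SK/EPI and 79.2, 80.6 and 80.4 FPKM in SK/EPI-siNC (log2 difference 0.69 ± 0.0434 (SE), adjusted p = 3.36e-05) and MALAT1 at 85.7, 84.3 and 88.2 and 135, 133 and 138 FPKM. Splicing factors (1 rose and 11 fell of 18 tested), RNAs with little or no poly-A tail (3 rose and 8 fell of 18 tested), citric acid cycle genes (4 rose and 9 fell of 17 tested) and amino acid transporters (3 rose and 3 fell of 10 tested) had medians of -0.14, -0.20, -0.15 and 0.03. With equal sums the medians of splicing factors and citric acid cycle genes turned to 0.04 and 0.02. The splicing factor SRSF6 fell from 107 to 81.3 FPKM and the transporter SLC7A1 from 16 to 11.3 FPKM. The median difference was 0.11 in the 3055 tested genes with the shortest exons and 0.01 to 0.03 in the other 4 bins of length, and 0.00 to 0.06 over 5 bins of GC content. Its part in these results was not tested.

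Among the transporters that carry drugs out of the cell, 6 rose and 1 fell of 8 tested. ABCG2, the gene of BCRP, was at 34.5, 35.8 and 32.8 FPKM in SK/EPI and 32.1, 32.4 and 33.5 FPKM in SK/EPI-siNC and did not pass the test (log2 difference -0.07 ± 0.0356 (SE), adjusted p = 0.146). The sign of this difference turned to 0.11 and 0.02 with equal sums over all genes and without the mitochondrial chromosome. In SK/EPI-siBCRP, ABCG2 was at 2.81, 3.42 and 2.87 FPKM. ABCB1, the gene of P-glycoprotein, was at 330.2, 327 and 329 FPKM in SK/EPI and 204, 205 and 204 FPKM in SK/EPI-siNC (1.61-fold lower, log2 difference -0.69 ± 0.0164 (SE), adjusted p = 9.32e-07), with 182, 187 and 183 FPKM in SK/EPI-siBCRP. ABCC3 rose from 5.85 to 12.7 FPKM and ABCC5 from 18.1 to 28.1 FPKM. ERBB2, the growth factor receptor amplified in the parental line, was at 131, 135 and 136 and 102, 103 and 106 FPKM (log2 difference -0.37), against a mean of 666 FPKM in SK-BR-3.

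The 12 largest rises on the log2(FPKM + 1) scale among genes with at least 5 FPKM in the higher group were OAS2, HLA-B, IFI44L, CT45A1, PAGE2B, IFI44, PI3, BST2, HCP5, IFI27, SAMD9L and ICAM5. CT45A1 and PAGE2B are cancer-testis antigens on the X chromosome with near-identical copies. CT45A1 was at 0.744, 0.417 and 0.485 and 6.75, 8.61 and 7.74 FPKM and PAGE2B at 1.43, 1.09 and 1.48 and 12, 11.5 and 12.5 FPKM, from at most 19 and 14 reads per SK/EPI library. PI3, the protease inhibitor elafin, was at 56.2, 58.8 and 57.1 FPKM in SK/EPI, 302, 287 and 280.4 FPKM in SK/EPI-siNC (5.05-fold, log2 difference 2.32 ± 0.0324 (SE), adjusted p = 2.08e-07) and 139, 135 and 139.98 FPKM in SK/EPI-siBCRP. HCP5, a non-coding RNA of the HLA region, rose from 0.547 to 6.66 FPKM and ICAM5, an adhesion molecule, from 3.22 to 17.9 FPKM.

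The 12 largest falls were GPHA2, LINC01405, SLC18A3, MIR4442, LY6D, FAM167B, CCL2, IGFBP5, SMOC1, VCX3B, PSCA and DIO1. GPHA2 (chr11:64934471-64935888), a subunit of the glycoprotein hormone thyrostimulin, was at 88.6, 89.2 and 95.4 FPKM in SK/EPI, 6.14, 5.74 and 5.16 FPKM in SK/EPI-siNC and 5.97, 5.92 and 6.10 FPKM in SK/EPI-siBCRP. It fell by the most of any tested gene on this scale (16-fold, log2 difference -3.79 ± 0.0582 (SE), adjusted p = 3.41e-07). IGFBP5, which binds insulin-like growth factors, was at 174, 178 and 175 and 38.2, 39.1 and 38.3 FPKM (4.55-fold lower, log2 difference -2.16 ± 0.0189 (SE), adjusted p = 3.9e-08). LY6D and PSCA, related surface proteins whose genes lie close together on chromosome 8, fell from 52.1 to 9.77 and from 37.7 to 8.48 FPKM.

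SLC18A3, the vesicular transporter of acetylcholine, fell from 6.26 to 0.314 FPKM, DIO1, a deiodinase that activates thyroid hormone, from 20.4 to 4.29 FPKM and SMOC1, a matrix protein, from 6.07 to 0.659 FPKM. LINC01405 fell from 8.64 to 0.7 FPKM, FAM167B from 16.3 to 2.53 FPKM and VCX3B, which has near-identical copies, from 7.67 to 1.10 FPKM. MIR4442 had 6 to 11 reads in SK/EPI and at most 1 in SK/EPI-siNC, at least 3.07-fold lower against the floor. Of its bases, 47.8% lie in exons of TOP2B on the same strand, a gene of chromosome 3 that itself fell from 33.4 to 12.8 FPKM.

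**Figure D4:**
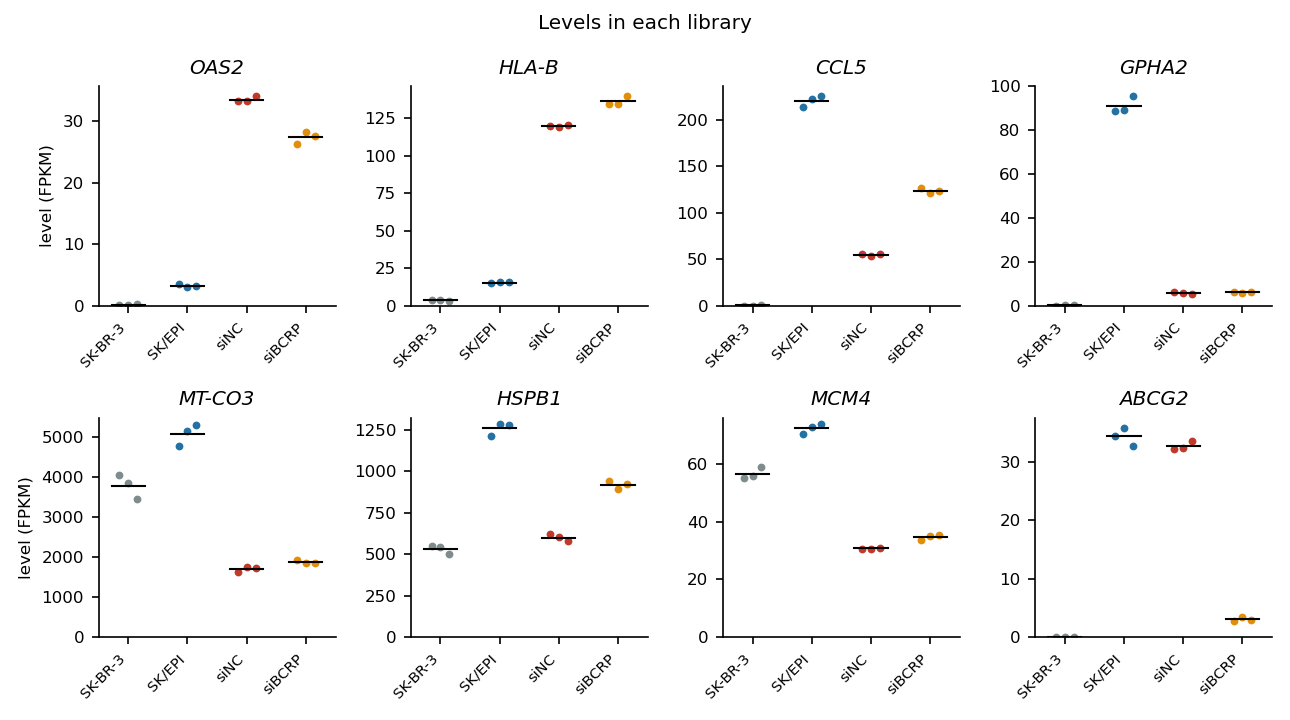
Level in FPKM of 8 genes in each of the 12 libraries, with a bar at the mean of each group of 3. OAS2 and HLA-B are high in both siRNA groups, CCL5, GPHA2, MT-CO3, HSPB1 and MCM4 are lower in both than in SK/EPI, and ABCG2 is low only in SK/EPI-siBCRP among the 3 SK/EPI groups.

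The differences were not spread evenly over the chromosomes. Of 11550 tested protein-coding genes, 30.8% were higher and 31.1% were lower in SK/EPI-siNC, with a median log2 difference of 0.01. On chromosome 18, 96 of 146 genes (65.8%) were higher and 9 (6.16%) were lower, with a median of 0.28. On chromosome 4, 217 of 398 (54.5%) were higher and 48 lower, with a median of 0.17. The opposite held on chromosome 15, where 27 of 366 genes were higher and 233 (63.7%) were lower, with a median of -0.26, on chromosome 14, where 229 of 383 (59.8%) were lower (median -0.19), and on chromosome 3, where 302 of 637 (47.4%) were lower (median -0.13, but 0.02 with equal sums). Equal sums moved the median of all these genes to 0.15 and those of chromosomes 18, 4, 14 and 15 to 0.42, 0.32, -0.05 and -0.12. The other 18 chromosomes had medians between -0.08 and 0.06.

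The 3 SK/EPI-siNC libraries gave almost the same medians, 0.28, 0.27 and 0.27 on chromosome 18 and -0.27, -0.27 and -0.26 on chromosome 15, each against the SK/EPI mean. SK/EPI-siBCRP, set against the same SK/EPI libraries, gave 0.29 and -0.26. Between SK/EPI-siBCRP and SK/EPI-siNC, which share a table, the medians were -0.01 and 0.00, and all 23 chromosomes lay between -0.05 and 0.05. Under quantile normalization, chromosomes 18 and 15 had medians of 0.24 and -0.29.

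Within some chromosomes the shift was larger in a stretch. In windows of 10 Mb with at least 20 tested genes (206 windows, GRCh38), 2 had a median of at least 0.3 and 11 had one of at most -0.3, counts that became 16 and 1 with equal sums and 1 and 13 with quantile normalization. The first 10 Mb of chromosome 4 had 55 higher and 2 lower of 64 genes (median 0.39). On chromosome X, the window from 40 to 50 Mb had 1 higher and 47 lower of 59 genes (median -0.45, and -0.31 with equal sums). On chromosome 3, the window from 30 to 40 Mb had a median of -0.37 and that from 40 to 50 Mb one of -0.31. On chromosome 15, the 3 windows from 50 to 80 Mb had medians of -0.36, -0.40 and -0.38, against -0.02 from 30 to 40 Mb. This grouping was chosen after the data were seen, was not put to a test, and its relation to the siRNA, to the culture or to the number of chromosomes in the cells was not tested.

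**Figure D5:**
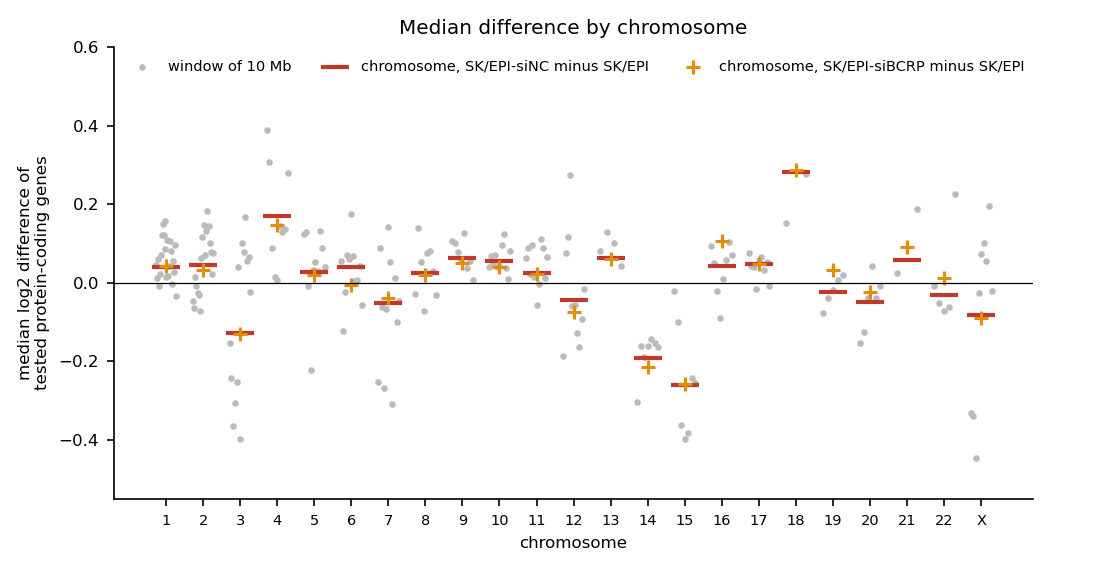
Median log2 difference of the tested protein-coding genes of each chromosome, SK/EPI-siNC minus SK/EPI (red bars) and SK/EPI-siBCRP minus SK/EPI (orange crosses, sharing the SK/EPI libraries), with windows of 10 Mb as gray points. Chromosomes 18 and 4 lie highest (0.28 and 0.17) and chromosomes 15, 14 and 3 lowest (-0.26, -0.19 and -0.13, the last 0.02 with equal sums).

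The gene groups were therefore counted again without chromosomes 3, 4, 14, 15 and 18, whose medians lay past 0.1 on either side. Shifted windows remained in this recount. Those of chromosome X from 0 to 10, 10 to 20 and 40 to 50 Mb had medians of -0.33, -0.34 and -0.45. That of chromosome 7 from 120 to 130 Mb had a median of -0.31. On the other chromosomes 30.1% of 12728 genes were higher and 24.0% lower. The interferon-stimulated genes there had 27 rises and 1 fall of 30, the antigen presentation genes 17 rises and 1 fall of 19, the heat shock genes 10 falls of 10, the replication genes 15 falls of 17 and the NRF2 targets 11 rises and 2 falls of 14. Members that passed the filter through 1 group only, whose direction was fixed by it, were not taken out of this recount. Among the NRF2 targets these were AKR1C1, AKR1C2 and AKR1C3. The cytosolic ribosome had 52 falls and 1 rise of 63 (median -0.30), and its 15 genes on the 5 chromosomes had 12 falls with a median of -0.46. These 15 include RPL15 on chromosome 3 and RPS29 on chromosome 14, the 2 largest falls of the list. The 1 heat shock gene on the 5 chromosomes is HSP90AA1 (-0.82), the 1 immediate early gene is FOS (-1.16) and the 1 glycolytic gene is PKM (-0.35). The 1 antigen presentation gene there is B2M (0.39) and the 1 NRF2 target is TKT (-0.21). Elsewhere the immediate early genes had 4 rises and 6 falls of 12, with a median of -0.17 against -0.31 for the whole list.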

How the data were processed

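RNA-seq was performed by the authors on poly-A selected RNA of 12 libraries. The authors deposited FPKM values for 58735 genes in 2 tables, whose unit is not stated there. Multiplied by the gene's summed exons in GENCODE release 29, the low values were whole multiples of 1 read (100% of those checked, tolerance 0.1 read). Higher values were not checked. The submitters' notes name hg38, HISAT2 2.0.5, featureCounts 1.5.0-p3 and DESeq2 1.16.1. Every column was used. All 58735 IDs were matched to GENCODE 29.

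Groups came from the labels. The 6 libraries were joined on gene ID and rescaled together by median of ratios over genes of at least 1 FPKM in all 6. Differences came from limma 3.58.1 (R 4.3.3, eBayes with a trend) on log2(FPKM + 1) for genes of at least 0.5 FPKM in at least 3 libraries, with Benjamini-Hochberg adjustment and a threshold of 0.05, and again on within-library rank percentiles. The steps were run on simulated reads with 200 changed genes. Of these, 67% were recovered at a log2 difference of 0.5 and 90% at 1, and 26 unchanged genes were called. The simulation held no shift between tables or by chromosome, so that it does not cover such shifts. SK/EPI-siBCRP and SK-BR-3 were rescaled to the same reference. Python 3.11.15 was used for the rest.

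Named genes were ABCG2, ABCB1, ERBB2, the 12 largest rises and falls (adjusted p under 0.05, at least 5 FPKM in the higher group, no overlap between groups, no read-through, pseudogene or unnamed loci), the 2 largest called rises and falls of each of 32 gene lists, and list members where called members are listed. Some genes that this rule names are not reported here. TOP2B and genes without a call were named after their values were seen. The members and lists were chosen with earlier results of these data known, so that their counts are descriptions. The strand setting of the counting is not given in the sources used here.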

Additional observations from a re-analysis of the deposited data

How the results depend on the processing

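Under the alternatives the count of higher and lower genes moved most with scaling to equal sums over all genes (7249 higher, 2210 lower) and with a log2 difference of at least 1 (216 and 161). Leaving out 1 library at a time gave 3690 to 4136 higher and 3483 to 3660 lower. The recovered reads fitted with voom gave 4607 and 4470. Direction turned for ABCG2 (0.1054 with equal sums, 0.0194 with equal sums without the mitochondrial chromosome), IFITM2 (0.0663 with equal sums, 0.0856 with quantile normalization, 0.0589 percentile points by ranks), TXNRD1 (0.0217 with quantile normalization, 0.0153 by ranks) and BCL2L2 (0.0271 with equal sums), and the cause was not tested. Of 2223 values for 133 genes under 17 settings, 2181 kept direction and call, 32 lost the call, 2 gained it and 8 turned. A gene left out by the filter of a setting has no value there, and 116 genes had one with at least 1 FPKM required in all 6 libraries. The 133 genes were named mainly for large called differences in these libraries, so that this share does not carry over to all calls. Same-numbered libraries of the groups did not deviate together (correlations 0.03, -0.01 and 0.02 over 12667 genes). A fit with the replicate number as a block gave 4097 higher and 3712 lower, of which 7563 were called in the same direction without the block. Values at a few reads are limited by depth.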

Other observations

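Genes outside the lists that are known to respond to interferon were named here after their values were seen, with levels as means ± SD over 3 libraries. RTP4 was at 0.496 ± 0.147 FPKM in SK/EPI and 4.63 ± 0.117 FPKM in SK/EPI-siNC, LAMP3 at 2.58 ± 0.302 and 11.2 ± 0.865 FPKM, and LGALS9, galectin-9, at 1.65 ± 0.189 and 7.91 ± 0.382 FPKM. The antiviral helicase DDX60 was at 4.55 ± 0.364 and 13.8 ± 0.524 FPKM, and the apolipoprotein APOL1 at 1.62 ± 0.304 and 5.80 ± 0.419 FPKM. The butyrophilins BTN3A1, BTN3A2 and BTN3A3, a near-identical family that takes part in the γδ T cell response to phosphoantigens, rose from 2.65 to 7.76, from 2.29 to 6.10 and from 1.66 to 5.01 FPKM. All of these had a limma adjusted p under 0.05, as did 29.3% of all tested genes in the same direction. Because they were chosen by their values, this count is a description only. SLFN11, also known as interferon-induced and as a sensitizer to DNA-damaging drugs, went the other way, 4.09 ± 0.283 to 0.216 ± 0.0624 FPKM, with 0.288 FPKM in SK/EPI-siBCRP and 3.02 FPKM in SK-BR-3.

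Other genes were likewise named after their values were seen, from no fixed list. The serum amyloid genes SAA1 and SAA2, which are near-identical, were at 70.5 ± 3.84 and 7.66 ± 0.473 FPKM in SK/EPI and 262 ± 7 and 24.8 ± 0.906 FPKM in SK/EPI-siNC. Complement C3 rose from 4.50 to 14.1 FPKM and CFB from 7.39 to 17.5 FPKM. In contrast S100A7, psoriasin, fell from 468 to 136 FPKM, CD14, the lipopolysaccharide co-receptor, from 27.6 to 6.76 FPKM and SPP1, osteopontin, from 46.3 to 10.8 FPKM. The anthracycline target TOP2B was at 33.4 ± 0.915 FPKM in SK/EPI, 12.8 ± 0.56 FPKM in SK/EPI-siNC, 10.5 FPKM in SK/EPI-siBCRP and 27.1 FPKM in SK-BR-3. TOP2B lies on chromosome 3, where 302 of 637 tested protein-coding genes were lower in SK/EPI-siNC. Whether its fall belongs to that shift was not tested.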
